A study of Mus musculus with 11 samples.

Results

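The genes described here are App, which encodes the amyloid precursor protein, its paralog Aplp2, and 7 genes for the secretases that cut these proteins. Adam10 and Adam17 encode alpha-secretases, Bace1 and Bace2 encode beta-secretase and its paralog, and Psen2, Ncstn and Aph1a encode subunits of the gamma-secretase complex. They were chosen by gene symbol and not by any measured value, and make up 9 of the 36529 genes in the count files. All 9 were compared over the 4 groups of samples.

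App and Aplp2 are membrane proteins with a large outer part, and they can be cut along several routes. An alpha-secretase cut releases the soluble outer part, and in App it passes through the amyloid-beta region, so that no amyloid-beta peptide is made. In contrast, a beta-secretase cut of App followed by a gamma-secretase cut within the membrane frees the amyloid-beta peptide. Gamma-secretase is assembled from a presenilin, which holds the catalytic site, together with nicastrin, an Aph1 protein and the presenilin enhancer encoded by Psenen. In microglia the same enzymes also cut many other surface proteins, among them the cytokine TNF and its receptors, which Adam17 sheds.

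Transcripts were counted in BV2 cells, a transformed microglial line whose labelled strain is C57BL/6, after exposure for 5 h to amino-terminal fragments of human apolipoprotein E spanning residues 1 to 151. In the nApoE4 experiment 3 samples received the ApoE4 fragment at 25 µg/ml and 3 untreated samples (ControlA) served as its controls. In the nApoE3 experiment 2 samples received the ApoE3 fragment at the same dose and 3 untreated samples (ControlB) served as controls. The fragments carried a His tag, the labels name PBS as the vehicle, and every sample came from the 1 cell line in culture. The labels do not state that replicates were separate cultures, so p-values measure the spread between these samples, which may be technical. Since each fragment had its own experiment, a difference between fragments cannot be told apart from one between experiments.

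The 6 samples of the nApoE4 experiment held 39732710 to 44162511 counts and the 5 samples of the nApoE3 experiment held 55809688 to 69768666. Replicates differed by more than sampling noise, and ControlA replicate 2 stood somewhat apart from the other ControlA samples (chi-square per gene of 25.8 and 47.9 against 7.85 between the other two). Levels are given as CPM, counts per 1000000 counts in a sample after scaling between samples. Of 12 microglia and macrophage markers, 9 lay above 1 CPM in every group, while P2ry12 had no counts and Aif1 and Cx3cr1 had at most 10 and 43 counts in any sample. Overlap of the marker genes with other counted genes was not examined. Of 713 protein-coding genes lying wholly inside another counted gene, 678 had no counts. The lack of P2ry12 counts is therefore not read as a lack of its transcript. The summed level of these 12 markers was 3020 to 3420 CPM in ControlA, 3340 to 3410 CPM with nApoE4, 2060 to 2150 CPM in ControlB and 2780 to 2790 CPM with nApoE3. The sum over 5 astrocyte markers, most of it Slc1a2, was 1.20 to 1.39 CPM in ControlA, 6.02 to 7.02 CPM with nApoE4, 1.07 to 1.29 CPM in ControlB and 4.36 to 4.53 CPM with nApoE3. Over 5 neuron markers the sum was 1.93 to 2.49, 5.26 to 6.27, 1.10 to 1.42 and 1.46 to 1.49 CPM in the same order, and over 5 oligodendrocyte markers it reached at most 25.5 CPM. The part of these cell type markers in the results was not tested.

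App and Aplp2, and Adam17 and Adam10, are pairs of relatives whose members changed in opposite directions in the counts below. For this reason their upstream bases are shown here. They come from RefSeq on GRCm38.p6, from a set of upstream windows in which 7 of the 9 genes were matched, and run 5′ to 3′ on the strand of the gene toward an annotated transcript start. The App window lies inside the RefSeq span of the gene, which reaches position 85175255, so its start is not the outermost one. Capitals mark the GC box, searched as GGGCGG on both strands, which 32.7% of 32851 upstream windows of 250 bases hold. The last 59 bases of the App window and the last 38 of the Adam10 window are left out because other transcripts of these genes begin there.
App, chr16:85173767-85173957, minus strand: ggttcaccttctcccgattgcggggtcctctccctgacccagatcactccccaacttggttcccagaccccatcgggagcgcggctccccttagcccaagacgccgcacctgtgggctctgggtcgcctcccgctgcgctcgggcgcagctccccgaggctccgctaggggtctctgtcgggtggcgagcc
Aplp2, chr9:31211849-31212098, minus strand: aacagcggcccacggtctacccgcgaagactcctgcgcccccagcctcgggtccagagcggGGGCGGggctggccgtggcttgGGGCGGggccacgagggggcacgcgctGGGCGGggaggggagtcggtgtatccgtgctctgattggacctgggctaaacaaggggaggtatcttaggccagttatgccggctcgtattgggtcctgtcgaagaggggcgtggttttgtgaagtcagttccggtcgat
Adam17, chr12:21373633-21373882, minus strand: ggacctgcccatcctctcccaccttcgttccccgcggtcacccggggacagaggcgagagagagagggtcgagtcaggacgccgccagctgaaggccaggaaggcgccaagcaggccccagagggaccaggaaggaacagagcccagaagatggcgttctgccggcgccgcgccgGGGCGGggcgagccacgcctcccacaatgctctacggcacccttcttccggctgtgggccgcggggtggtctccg
Adam10, chr9:70678732-70678943, plus strand: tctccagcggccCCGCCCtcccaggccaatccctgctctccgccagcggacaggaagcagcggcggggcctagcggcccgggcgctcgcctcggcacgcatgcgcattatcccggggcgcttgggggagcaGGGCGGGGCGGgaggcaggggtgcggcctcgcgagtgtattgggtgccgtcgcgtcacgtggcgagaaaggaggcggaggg
The Aplp2 window held 3 GC boxes, the Adam10 window 3, of which 2 share bases, and the Adam17 window 1. The single App match lay in the 59 bases left out. TATAAA, the NF-kB and ISRE patterns, TTCNNNGAA (GAS), TGANTCA (AP-1), GAGGAA (PU.1) and TGACGTCA (CRE) had no match on either strand in the 250-base windows of these 4 genes. Among all windows these motifs were held by 12.4%, 1.41%, 2.98%, 7.02%, 6.75%, 23.3% and 1.55%, in that order. A match describes the letters only and no binding was measured here.

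In comparison to untreated controls, both fragments were accompanied by the same directions of change: App, Adam17 and Ncstn were higher, and Aplp2, Adam10 and Psen2 were lower. By edgeR's quasi-likelihood test with Benjamini-Hochberg adjustment over all genes, 3 of the 8 genes tested rose and 3 fell with nApoE4, where 57.2% of all 14240 genes tested were called (28.6% higher and 28.6% lower). With nApoE3 the counts were again 3 and 3 of 8, where 67.7% of 14817 genes were called (33.1% higher and 34.6% lower). Most genes tested were called in each experiment taken alone, so the count of 6 of 8 is not a result about these genes in particular. Adam17 alone among them changed by more than 2-fold, in a background of 10.2% of genes rising and 7.46% falling that far with nApoE4 and 9.6% and 6.57% with nApoE3. Bace1 and Aph1a did not pass the threshold with either fragment, and Bace2 had too few counts to be tested. In bulk RNA a lower level can come from fewer cells that express a gene or from less RNA per cell, and these cannot be told apart.

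**Figure D1:**
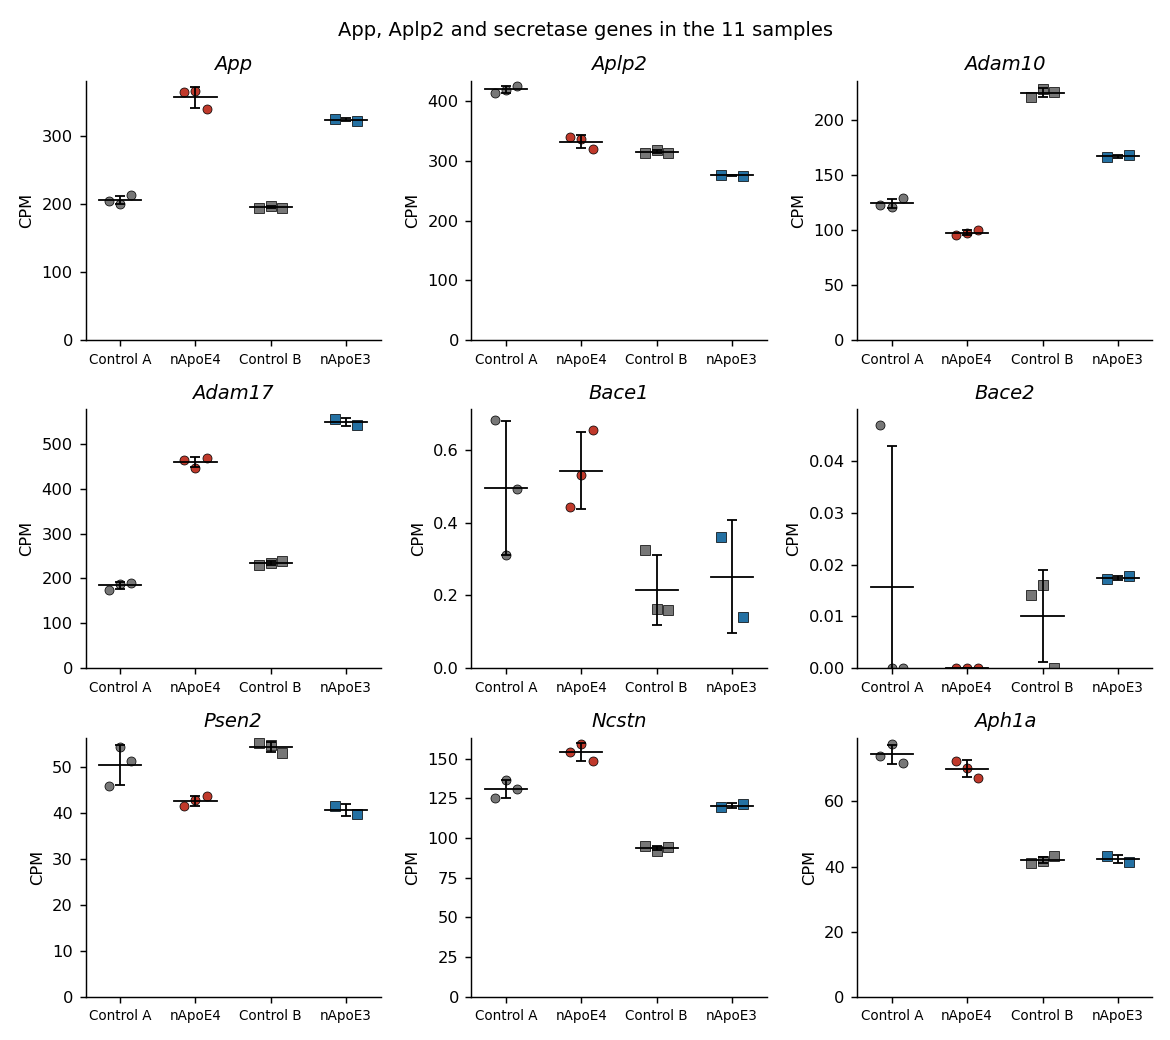
Level of each gene in each of the 11 samples, in CPM (linear axes from 0). Points are samples, long bars are group means and error bars are SD (n = 3, 3, 3 and 2). App, Adam17 and Ncstn lie higher, and Aplp2, Adam10 and Psen2 lower, in every treated sample than in every sample of its own controls.

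App (chr16:84952666-85175255, minus strand, positions here and below from RefSeq on GRCm38.p6) was clearly expressed in every sample. Its level was 203.7, 200.6 and 212.7 CPM in the ControlA samples and 364.5, 366.7 and 339.5 CPM in the nApoE4 samples. In the nApoE3 experiment it was 193.9, 196.7 and 194.7 CPM in the controls and 325.5 and 322.2 CPM in the treated samples. Treated and control samples did not overlap in either experiment. App rose 1.74-fold with nApoE4 (log2 fold change 0.80, SE 0.062, edgeR adjusted p = 3.37e-06) and 1.65-fold with nApoE3 (0.72, SE 0.021, edgeR adjusted p = 1.79e-11). Among all genes tested, 12.9% had a higher log2 fold change than App with nApoE4 and 13.4% with nApoE3.

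Aplp2 (chr9:31149557-31211848, minus strand), whose product is cut by the same enzymes, moved the other way. It stood at 415, 420 and 427 CPM in ControlA and at 340, 337 and 320 CPM with nApoE4. The ControlB samples gave 314, 319 and 314 CPM and the nApoE3 samples 277 and 275 CPM. Each treated group lay below its own controls, although the ControlB samples themselves lay below all nApoE4 samples. Aplp2 fell by 0.33 on the log2 scale with nApoE4 (SE 0.059, edgeR adjusted p = 0.000954) and by 0.20 with nApoE3 (SE 0.021, edgeR adjusted p = 3.24e-06).

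Because App and Aplp2 are counted in the same library, their ratio does not depend on scaling between samples. There were 0.491, 0.478 and 0.499 App counts per Aplp2 count in ControlA and 1.07, 1.09 and 1.06 with nApoE4. In ControlB the ratio was 0.618, 0.617 and 0.62, and with nApoE3 it was 1.18 and 1.17. Aplp2 had more counts than App in every control sample and fewer in every treated sample, a shift of 2.19-fold in the mean ratio with nApoE4 and 1.9-fold with nApoE3. An exact permutation test of such ratios cannot go below p = 0.1 with 3 against 3 samples or 0.2 with 2 against 3, so none is given.

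**Figure D2:**
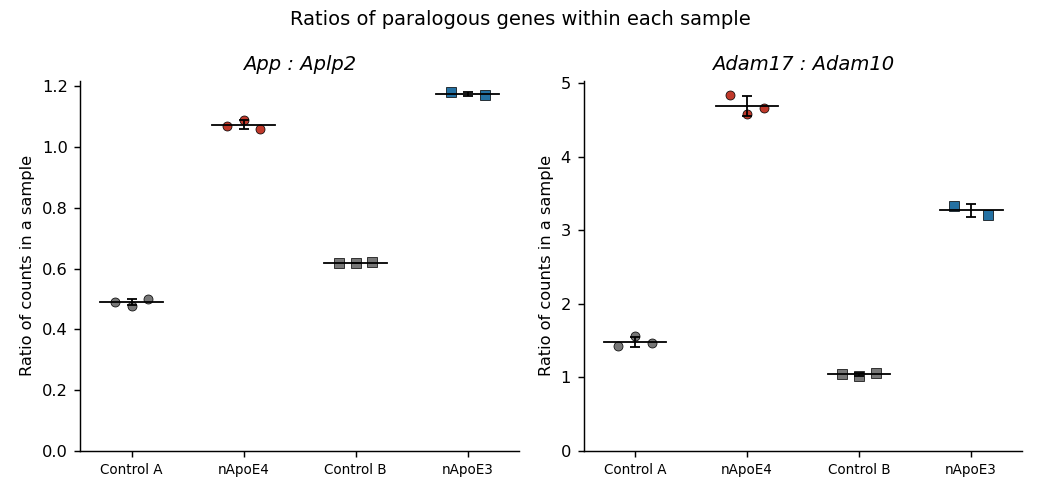
Ratio of counts of App to Aplp2 (left) and of Adam17 to Adam10 (right) within each sample, on linear axes from 0. Points are samples, bars are group means with SD (n = 3, 3, 3 and 2), and both ratios are higher in all treated samples than in their controls.

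The alpha-secretases moved apart in the same manner. Adam17 (chr12:21323509-21373632, minus strand), the TNF-converting enzyme, had the largest change of the 9 genes. It was at 175, 189 and 190 CPM in ControlA and at 464, 445 and 467 CPM with nApoE4. In the nApoE3 experiment the controls had 229, 234 and 239 CPM and the treated samples 554 and 541 CPM. No treated sample came near a control sample. Adam17 rose 2.49-fold with nApoE4 (log2 fold change 1.32, SE 0.063, edgeR adjusted p = 1.08e-07) and 2.33-fold with nApoE3 (1.22, SE 0.024, edgeR adjusted p = 4.54e-13). Higher log2 fold changes were seen in 7.7% and 7.8% of the genes tested, respectively.

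Adam10 (chr9:70678944-70780229, plus strand), the main constitutive alpha-secretase in neurons, was lower in treated cells. Its values were 123, 121 and 129 CPM in ControlA and 95.9, 97.2 and 100 CPM with nApoE4. They were 221, 229 and 226 CPM in ControlB and 166 and 168 CPM with nApoE3. Both treated groups lay wholly below their own controls, but the nApoE3 samples lay above the ControlA samples, since the control groups themselves differed. Adam10 fell by 0.34 on the log2 scale with nApoE4 (SE 0.056, edgeR adjusted p = 0.000595) and by 0.44 with nApoE3 (SE 0.025, edgeR adjusted p = 8.86e-09).

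Adam17 had more counts than Adam10 in every sample, and by more after treatment. The ratio of Adam17 to Adam10 counts was 1.42, 1.56 and 1.47 in ControlA and 4.84, 4.58 and 4.66 with nApoE4. It was 1.04, 1.02 and 1.06 in ControlB and 3.33 and 3.21 with nApoE3. The control ratios of the experiments did not overlap, yet the mean ratio rose by nearly the same factor in each, 3.16-fold with nApoE4 and 3.15-fold with nApoE3. This ratio, like that of App to Aplp2, restates the opposite changes of its genes given above and is not a further result.

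The beta-secretase genes were barely detected. Bace1 (chr9:45838545-45862484, plus strand), the enzyme that starts amyloid-beta production, had 29, 14 and 23 counts in ControlA and 19, 22 and 26 with nApoE4, in libraries of the depths given above. It had 23, 10 and 9 counts in ControlB and 21 and 8 with nApoE3. Treated and control samples overlapped in both experiments, and the mean level was under 0.6 CPM in every group. The log2 fold change of Bace1 was 0.14 with nApoE4 (95% interval -0.58 to 0.85, edgeR adjusted p = 0.74) and 0.19 with nApoE3 (-0.86 to 1.24, edgeR adjusted p = 0.745). Both intervals include no change as well as a fall or a rise. In addition, 77.3% of its annotated exon bases lie within the span of Rnf214. Of 713 protein-coding genes lying wholly inside another counted gene, 678 had no counts in any sample, against 2753 of 19730 others, and how many Bace1 reads went uncounted for this reason was not tested.

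Bace2 (chr16:97356728-97442936, plus strand), which can cut App within the amyloid-beta region, had 2, 0 and 0 counts in ControlA and none in the 3 nApoE4 samples. In the nApoE3 experiment 1, 1 and 0 reads were counted without treatment, and 1 in each treated sample. No sample was above 3 counts, the limit that a count of 0 allows, which corresponded to 0.0425 to 0.0756 CPM. None of its exon bases lies within another counted gene. No fold change is given for Bace2.

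Of the gamma-secretase subunits listed, Psen2 fell, Ncstn rose and Aph1a did not pass the threshold. Psen2 (chr1:180227004-180263467, minus strand), a presenilin gene, stood at 45.9, 54.5 and 51.4 CPM in ControlA and at 41.6, 42.8 and 43.8 CPM with nApoE4. In the nApoE3 experiment it stood at 55.3, 54.9 and 53.2 CPM in the controls and at 41.6 and 39.9 CPM in the treated samples. The groups did not overlap, although the lowest ControlA sample lay close to the nApoE4 samples. Psen2 fell by 0.24 on the log2 scale with nApoE4 (SE 0.070, edgeR adjusted p = 0.0157) and by 0.43 with nApoE3 (SE 0.035, edgeR adjusted p = 2.88e-07). Without nApoE4 replicate 1 the first of these no longer passed (edgeR adjusted p = 0.0651).

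Ncstn (chr1:172066013-172082789, minus strand) encodes nicastrin, the subunit that admits substrates to the complex. Its level was 125, 137 and 131 CPM in ControlA and 155, 159 and 148 CPM with nApoE4. It was 94.8, 92.1 and 94.6 CPM in ControlB and 119 and 121 CPM with nApoE3. All treated samples lay above their own controls. The rise was 1.18-fold with nApoE4 (log2 fold change 0.24, SE 0.060, edgeR adjusted p = 0.00657) and 1.28-fold with nApoE3 (0.35, SE 0.027, edgeR adjusted p = 1.45e-07).

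Aph1a (chr3:95893921-95898592, plus strand), a scaffold subunit, gave 74.0, 77.6 and 71.9 CPM in ControlA and 72.4, 70.3 and 67.3 CPM with nApoE4. It gave 41.2, 41.8 and 43.1 CPM in ControlB and 43.2 and 41.3 CPM with nApoE3. Treated and control samples overlapped in both experiments. The 95% interval of its log2 fold change ran from -0.21 to 0.045 with nApoE4 (edgeR adjusted p = 0.239) and from -0.076 to 0.084 with nApoE3 (edgeR adjusted p = 0.928). Part of its exon sequence (15.1%) lies within the span of Car14, against at most 4.91% for the other genes of the 9 apart from Bace1.

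**Figure D3:**
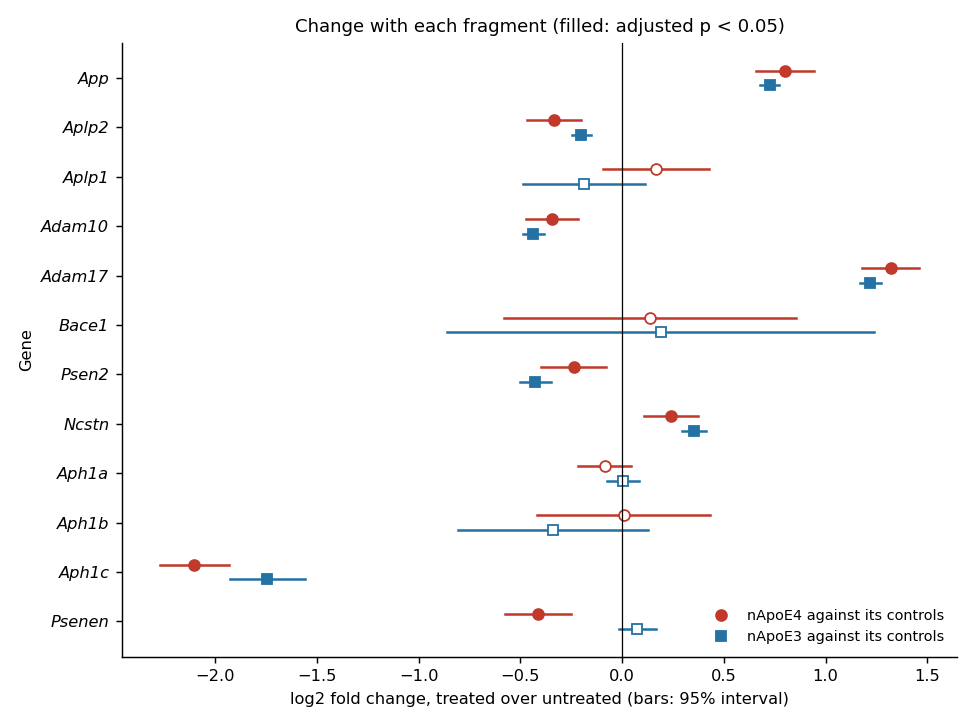
Log2 fold change of each gene, treated over untreated, with its 95% interval (red circles nApoE4, blue squares nApoE3), filled where the edgeR adjusted p passed the threshold. Bace2, which was not tested, is not drawn, and Aplp1, Aph1b, Aph1c and Psenen are added from the wider family. App and Adam17 lie to the right of 0 and Aph1c far to the left with both fragments.

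Of further genes of the family and the complex, 4 were tested, namely Aplp1, Psenen, Aph1b and Aph1c. Aph1c, a rodent paralog of Aph1b, fell from 24.1, 25.9 and 23.8 CPM in ControlA to 5.76, 5.56 and 5.82 CPM with nApoE4. It fell from 9.98, 10.1 and 10.1 CPM in ControlB to 2.82 and 3.22 CPM with nApoE3. These were decreases of 4.29-fold (edgeR adjusted p = 1.51e-08) and 3.35-fold (edgeR adjusted p = 1.98e-09), larger than that of any of the 9 genes. Aph1c and Aph1b are close copies that lie next to each other, so reads that align to both may be missing from the counts of each. How many was not tested. Aph1b, at 0.832 to 2.64 CPM in all samples, did not pass the threshold with either fragment.

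Psenen, the gene of the presenilin enhancer, was at 31.4, 33.8 and 28.8 CPM in ControlA and at 24.2, 22.6 and 23.6 CPM with nApoE4. It was at 21.6, 20.9 and 21.4 CPM in ControlB and at 22.2 and 22.9 CPM with nApoE3. Psenen fell by 0.41 on the log2 scale with nApoE4 (SE 0.072, edgeR adjusted p = 0.000847), and its log2 fold change of 0.075 with nApoE3 did not pass (SE 0.041, edgeR adjusted p = 0.128). Aplp1, a mainly neuronal relative of App, remained at 2.06 to 6.12 CPM and did not pass with either fragment.

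Levels of different genes can be compared only per length. In RPKM, the CPM divided by the length of the union of annotated exons in kilobases, the order in ControlA was Aplp2 at 71.6 ± 0.999, Ncstn at 32.9 ± 1.42, Adam17 at 25.8 ± 1.19, Adam10 at 25.3 ± 0.902, Aph1a at 21.6 ± 0.844, App at 15.8 ± 0.483 and Psen2 at 11.7 ± 1.01 (SD, n = 3). On this length Adam17 and Adam10 did not differ beyond their spread. Bace1 was at 0.0780 ± 0.0290 RPKM, far below the rest. The order depended on the length used, and the exon union of App spans 12996 bases against 3176 in its principal transcript. By principal transcript, a choice added after seeing the data, App stood second in ControlA at 64.8 ± 1.98 RPKM, below Aplp2 at 116 ± 1.62 and above Ncstn at 45.1 ± 1.95, and Adam17 at 41.5 ± 1.91 RPKM lay above Adam10 at 27.1 ± 0.965 by more than their spread. With nApoE4 the corresponding levels were 112 ± 4.76 for App, 103 ± 2.67 for Adam17 and 91.5 ± 2.99 for Aplp2 (SD, n = 3). Over the exon union the nApoE4 levels were 64.1 ± 1.66 RPKM for Adam17, 56.6 ± 1.85 for Aplp2 and 27.5 ± 1.16 for App. App thus lay above Aplp2 with nApoE4 only by principal transcript.

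The responses to the fragments were compared by the interaction, the nApoE4 response minus the nApoE3 response, in all 11 samples. None of the 8 genes tested passed the threshold in edgeR, where 28.3% of 15287 genes did, and 1 (Aplp2) had an unadjusted p below 0.05. None differed by more than 2-fold, against 2.58% of genes higher and 3.35% lower that far. The difference was 0.064 for App (95% interval -0.079 to 0.21, edgeR adjusted p = 0.519) and 0.088 for Adam17 (-0.060 to 0.24, edgeR adjusted p = 0.382). For Adam10 it was 0.081 (-0.055 to 0.22), for Ncstn -0.12 (-0.27 to 0.023) and for Aph1a -0.10 (-0.25 to 0.052), with edgeR adjusted p of 0.381, 0.203 and 0.329. For Bace1 the difference was -0.067, with the widest interval of the 8, from -1.39 to 1.26.

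Aplp2 and Psen2 came nearest to a difference. Aplp2 fell further with nApoE4, by 0.14 on the log2 scale (95% interval -0.28 to -0.014, edgeR adjusted p = 0.0935), and passed by DESeq2 (adjusted p = 0.0214). Psen2 fell further with nApoE3, with a difference of 0.18 (-0.013 to 0.36, edgeR adjusted p = 0.158). Without ControlA replicate 2, the sample that stood apart, both passed, with edgeR adjusted p of 0.0458 for Aplp2 and 0.019 for Psen2. Of the added subunits, Psenen (difference -0.50, edgeR adjusted p = 0.000908) and Aph1c (-0.37, edgeR adjusted p = 0.0166) responded more negatively with nApoE4. However, Aph1c no longer passed with a replicate block (edgeR adjusted p = 0.11) or in thinned libraries. Differences between fragments are also differences between experiments.

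The untreated groups differed from each other in most of these genes. In ControlB relative to ControlA, 2 of 8 genes were higher and 4 lower, where 69.3% of 14249 genes were called (34.4% higher and 34.9% lower). Adam10 was 1.79-fold higher in ControlB (log2 difference 0.84, SE 0.045, edgeR adjusted p = 2.01e-06) and Aph1a 1.79-fold lower (-0.84, SE 0.048, edgeR adjusted p = 2.64e-06). Beyond 2-fold, where 5.4% of genes were higher and 12.5% lower, only Bace1 was called. Adam17 was 1.25-fold higher, Ncstn 1.41-fold lower and Aplp2 1.35-fold lower (edgeR adjusted p at most 0.00038). Bace1 was 2.26-fold lower (edgeR adjusted p = 0.0276), on 9 to 29 counts a sample, and lost its call when ControlA replicate 1 or 3 or ControlB replicate 2 or 3 was left out (adjusted p of 0.112, 0.0573, 0.0899 and 0.0844). App (edgeR adjusted p = 0.0835) and Psen2 (edgeR adjusted p = 0.221) did not pass, but without ControlA replicate 2 both did (adjusted p of 0.0061 and 0.0119). For Aplp2, Adam10, Ncstn, Bace1 and Aph1a the distance between the control groups exceeded the change with either fragment. For App and Adam17 the change with each fragment exceeded the distance between the controls, at 0.80 and 0.72 against -0.092 and at 1.32 and 1.22 against 0.33 on the log2 scale. The same held for Psen2, at -0.24 and -0.43 against 0.091.

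In order of level, App was highest with nApoE4 (357 ± 15.1 CPM), then with nApoE3 (324 ± 2.34), in ControlA (206 ± 6.28) and in ControlB (195 ± 1.46), and the control groups at the end of that order did not pass the test above. Adam17 was highest with nApoE3 (548 ± 9.31 CPM), then with nApoE4 (459 ± 11.9), in ControlB (234 ± 5.03) and in ControlA (185 ± 8.49; SD, n = 2 with nApoE3 and 3 otherwise).

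Further genes of App processing were taken from lists of partners, other proteases, trafficking factors, adaptors, clearance genes and substrates. These lists are described by counts and medians, against a median log2 fold change over all genes of 0.0013 with nApoE4 and -0.0026 with nApoE3. Over all genes 28.6% rose and 28.6% fell with nApoE4, and 33.1% rose and 34.6% fell with nApoE3, and nothing is read as particular to a list. Among the partners and inhibitors of Adam10 and Adam17, 11 of 15 genes could be tested with nApoE4, of which 1 rose and 6 fell (median -0.40), and with nApoE3 2 of 10 rose and 7 fell (median -0.27). Rhbdf2, which encodes iRhom2 and carries Adam17 to the cell surface, was at 18.8, 19.0 and 19.3 CPM in ControlA and 99.9, 109 and 95.1 CPM with nApoE4. It was at 15.4, 16.8 and 17.6 CPM in ControlB and 77.0 and 74.4 CPM with nApoE3. Rhbdf2 thus rose by 2.42 and 2.19 on the log2 scale (SE 0.067 and 0.047, edgeR adjusted p = 3.16e-09 and 1.11e-12).

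Tetraspanins of the C8 group escort Adam10. Tspan14 fell from 46.2, 49.1 and 47.2 CPM to 16.3, 16.6 and 14.6 CPM with nApoE4 and from 48.8, 47.1 and 47.1 CPM to 20.2 and 19.4 CPM with nApoE3 (log2 fold changes -1.58 and -1.27, edgeR adjusted p = 5.20e-08 and 2.76e-11). Tspan10 fell by 1.92 and 1.21 (edgeR adjusted p = 8.06e-06 and 2.42e-08). Tspan14 and Tspan10 were named for the size of their change and do not stand for the group. Of the other tetraspanins listed, with nApoE4 some fell less, and others did not pass or were not tested. Furin, the convertase that matures both enzymes, did not pass with nApoE4 (log2 fold change 0.066, edgeR adjusted p = 0.453) and rose by 0.33 with nApoE3 (edgeR adjusted p = 9.09e-07). Timp3, an inhibitor of Adam17, had no counts in any sample, and its whole span lies inside Syn3, so its expression could not be read from these counts.

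Among 8 other proteases that cut App, 2 of 7 tested rose and 4 fell with nApoE4 (median -0.33), and 1 of 6 rose and 3 fell with nApoE3 (median -0.30). Adam19 fell by 2.74 with nApoE4 and 0.98 with nApoE3 on the log2 scale (edgeR adjusted p = 4.92e-06 and 0.000871), from 5.53 to 6.60 CPM in ControlA and 1.35 to 1.53 CPM in ControlB. Casp6, a caspase that can cut the App tail, fell by 1.20 and 0.76 (edgeR adjusted p = 1.78e-06 and 7.41e-08). Lgmn, the lysosomal protease known as delta-secretase, had 36351 to 45196 counts in the ControlA samples and fell by 0.69 and 0.63 (edgeR adjusted p = 5.00e-05 and 1.42e-10). Adam9 rose by 0.42 with nApoE4 (edgeR adjusted p = 0.000133) and did not pass with nApoE3 (0.028, edgeR adjusted p = 0.422).

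Of 4 genes of gamma-secretase assembly and modulation, 2 rose with nApoE4 (median 1.22) and 3 with nApoE3 (median 1.14), and none fell. Gsap, which encodes the gamma-secretase activating protein, was at 25.4, 23.8 and 26.3 CPM in ControlA and 124, 132 and 130 CPM with nApoE4. It was at 25.8, 27.1 and 26.7 CPM in ControlB and 117 and 120 CPM with nApoE3 (log2 fold changes 2.36 and 2.15, edgeR adjusted p = 2.70e-09 and 5.91e-14). Ifitm3, an interferon-induced protein that binds gamma-secretase, had 0, 1 and 0 counts in ControlA and 24, 19 and 25 with nApoE4. It had 14, 11 and 9 counts in ControlB and 423 and 326 with nApoE3, and passed with both fragments (edgeR adjusted p = 2.77e-05 and 1.00e-10). The additional call with nApoE3 was Rer1 (log2 fold change 0.12, edgeR adjusted p = 0.000877), which was named after its value was seen.

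Among 16 trafficking genes, all tested, 4 rose and 2 fell with nApoE4 (median 0.027) and 5 rose and 3 fell with nApoE3 (median 0.042). Rtn4, a reticulon that binds Bace1, rose by 0.76 and 1.25, Cd2ap rose by 0.45 and 0.40, and Gga2, which sorts Bace1, fell by 0.65 and 0.48 (edgeR adjusted p at most 0.000186 with either fragment). Sorl1, the sorting receptor that keeps App away from its secretases, did not pass with nApoE4 (-0.23, edgeR adjusted p = 0.0888) and fell by 0.35 with nApoE3 (edgeR adjusted p = 1.24e-07). Without ControlA replicate 2 or nApoE4 replicate 2 it passed with nApoE4 as well (edgeR adjusted p = 0.00169 and 0.0449). Among 13 cytoplasmic adaptors of App, 4 of 10 rose and 4 fell with nApoE4 (median 0.079), and 7 of 11 rose and 2 fell with nApoE3 (median 0.31). Dab2 fell by 0.90 and 0.57, while Apbb2 rose by 0.54 and 0.63 and Apba3 by 0.62 and 0.35 (edgeR adjusted p at most 0.00103).

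Among 18 genes of amyloid-beta degradation and uptake, 4 of 16 rose and 9 fell with nApoE4 (median -0.26), and 8 of 16 rose and 4 fell with nApoE3 (median 0.33), where 57.2% and 67.7% of all genes were called. Mmp2 rose by 2.39 and 1.57 and Mmp9 by 0.79 and 2.16 on the log2 scale (edgeR adjusted p at most 0.00322). Plau, the gene of the urokinase plasminogen activator, fell by 1.38 with nApoE4 and rose by 0.61 with nApoE3 (edgeR adjusted p = 1.74e-06 and 3.17e-07). Its mean level was 216 CPM in ControlA, 82.9 CPM with nApoE4, 43.6 CPM in ControlB and 66.9 CPM with nApoE3. The untreated groups thus lay further apart than the treated groups. Both metalloproteinases stayed at or below 4.53 CPM in every sample. Mme, the gene of neprilysin, had at most 5 counts in any sample. Ide, the insulin-degrading enzyme, did not pass with nApoE4 (0.025, edgeR adjusted p = 0.883) or nApoE3 (0.37, edgeR adjusted p = 0.138). Without nApoE3 replicate 1 its log2 fold change was 0.80, but that fit leaves 1 treated sample, so no test of it is given.

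Among 23 genes of proteins that the secretases cut, 8 of 19 rose and 7 fell with nApoE4 (median -0.15), and 8 of 19 rose and 6 fell with nApoE3 (median 0.11). Tnf, whose product is released by Adam17, had 3, 1 and 1 counts in ControlA and 53, 64 and 52 with nApoE4, and 1, 1 and 2 in ControlB and 106 and 116 with nApoE3. Tnfrsf1b, a TNF receptor shed by Adam17, rose by 2.41 and 3.10 on the log2 scale, from 196 to 203 CPM in ControlA and 146 to 151 CPM in ControlB (edgeR adjusted p = 3.34e-09 and 2.22e-16). Vcam1, an adhesion molecule that Adam17 sheds, had 10, 5 and 2 counts in ControlA and 627, 460 and 565 with nApoE4, and 12, 6 and 12 in ControlB and 1261 and 1127 with nApoE3. St6gal1, a sialyltransferase that Bace1 cuts, fell by 3.66 and 3.30 (edgeR adjusted p = 5.68e-09 and 2.02e-13). Itm2b, a regulator of App processing, fell by 0.40 and 0.23 (edgeR adjusted p = 0.00659 and 3.48e-06).

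**Figure D4:**
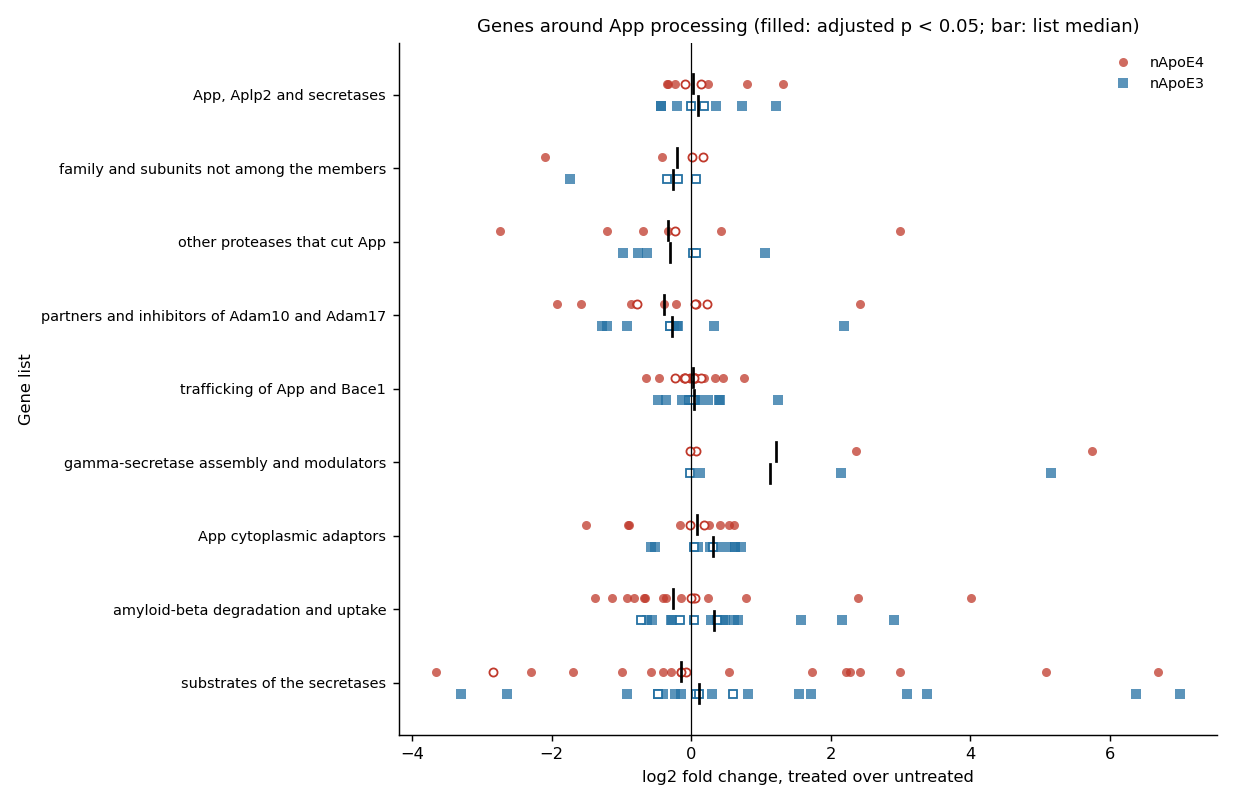
Log2 fold change, treated over untreated, of every tested gene of each list (rows), with red circles for nApoE4, blue squares for nApoE3, filled symbols where the edgeR adjusted p passed the threshold, and a black bar at the list median. The top row holds the 9 genes less Bace2, and the medians of the lists lie on both sides of 0.

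The genes whose log2 levels followed App most closely over the 11 samples, among 7047 genes whose mean reached 32 CPM in at least 1 group, were Rhbdf2 (Pearson r = 0.998), Nfkbiz (0.997), Cflar (0.997), Acsl1 (0.996) and Syk (0.996). All 5 were higher in the treated samples, by 1.60 to 4.02 on the log2 scale with nApoE4 and 1.58 to 3.75 with nApoE3. That direction follows from their choice by likeness to App and is not a separate result. Rhbdf2 and Nfkbiz reached 32 CPM only in the treated groups, with means of 19.0 and 23.0 CPM in ControlA and 16.6 and 16.8 CPM in ControlB. The points share the same division into treated and untreated samples, so these values describe that contrast more than any sample-to-sample likeness, and no test is given.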

How the data were processed

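Total RNA of BV2 cells was sequenced in 11 samples. Per the labels, the authors trimmed single-end reads with Trim Galore 0.5.0, checked them with FastQC 0.11.8, aligned them to GRCm38.p6 with HISAT2 2.1.0 and counted them per gene with HTSeq 0.11.0, and deposited raw counts. The annotation release, strand setting and overlap rule are not given in the sources used here. Of all tallied reads, 76.0 to 77.7% were counted on genes, 11.7 to 13.2% were not uniquely aligned and 3.24 to 3.56% were ambiguous, and these tallies were kept out of library sizes. Genes that share sequence or overlap lose reads at this step.

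Groups were taken from the sample titles. Treated samples were set against the untreated samples of the same experiment by edgeR 4.0.16 (R 4.3.3; filterByExpr, TMM scaling, quasi-likelihood F test, Benjamini-Hochberg adjustment over all genes tested, threshold 0.05), and the interaction and the ControlB against ControlA difference were fitted in the same way. The SE was taken from the log2 fold change and F, and 95% intervals from the t distribution. Levels are CPM after TMM scaling of all 11 samples, and lengths are from GENCODE M21. The script was tested on simulated data. DESeq2 1.42.0, other filters, other scaling, thinned libraries, a replicate block and leaving out each sample were tried as alternatives. Intervals and floors cover counting error or replicate spread only.

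The genes and lists were chosen with earlier results of these data known. All 9 genes are named. Of the genes on the other lists, 3 are not reported here and were left out of the list counts. From each other list, up to 3 genes with the largest mean change among those past the threshold with both fragments and at least 3 CPM in some group are named, together with the remaining family and subunit genes and Adam9, Lgmn, Rhbdf2, Timp3, Furin, Sorl1, Mme, Ide, Tnf, Tnfrsf1b, Itm2b and Ifitm3. Genes most like App are the 5 with the highest Pearson correlation.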

Additional observations from a re-analysis of the deposited data

Results flagged for a closer look

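None of App, Aplp2 and the secretase genes listed with them was marked here, but 14 of the 30 related genes named and tested responded differently in the experiments by the edgeR interaction test, given as the nApoE4 response minus the nApoE3 response on the log2 scale. Over all genes of the related lists 39 of 88 tested did, where 28.3% of all genes were called. Many of the named genes were picked by the size of their change, and the lists were chosen with earlier results known. The shares are therefore not a like comparison with all genes. Among the gamma-secretase genes, the difference was -0.50 for Psenen (adjusted p = 0.000908) and -0.37 for Aph1c (adjusted p = 0.0166). Among the proteases, it was 0.38 for Adam9 (adjusted p = 0.000541), -1.77 for Adam19 (adjusted p = 0.00146) and -0.46 for Casp6 (adjusted p = 0.00509). Among the partners of Adam10 and Adam17, it was -0.28 for Furin (adjusted p = 0.0259), -0.72 for Tspan10 (adjusted p = 0.0106) and -0.32 for Tspan14 (adjusted p = 0.00961). Among trafficking genes and adaptors, it was -0.50 for Rtn4 (adjusted p = 0.000236), -0.18 for Gga2 (adjusted p = 0.0399) and -0.35 for Dab2 (adjusted p = 0.00502). It was -0.70 for the TNF receptor gene Tnfrsf1b (adjusted p = 7.28e-06), -1.39 for Mmp9 (adjusted p = 0.00298) and -2.003 for Plau (adjusted p = 3.23e-07). With a replicate block Aph1c, Casp6, Furin, Tspan14, Gga2 and Dab2 no longer passed. The fragments were tested in separate experiments, so fragment and experiment cannot be told apart.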

How the results depend on the processing

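App, Aplp2, Adam10, Adam17 and Ncstn kept their direction with each fragment under all alternatives run. Log2 fold changes were 0.77 to 0.84 and 0.72 to 0.75 for App and 1.28 to 1.34 and 1.20 to 1.24 for Adam17. Fits without 1 nApoE3 sample leave 1 sample in that group, so their calls are not given. Leaving these and a required 2-fold change aside, the 5 genes also kept their call, and Psen2 did except without nApoE4 replicate 1. Leaving out single samples gave 5 to 6 called genes with nApoE4, 5 to 8 between the controls and 0 to 2 in the difference between fragments. The 2 were Aplp2 and Psen2 without ControlA replicate 2. With nApoE3, leaving out a control sample gave 6. DESeq2 called 1 gene (Aplp2) in that difference. With a required change above 2-fold, 1 gene was called with nApoE4 and 1 with nApoE3 (Adam17 in each) and 1 between the controls (Bace1), and over all genes 2515, 2397, 906 (difference) and 2551 (controls).

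Among the other genes named, 28 of 1016 values lost their call under an alternative and 6 gained one. All but 1 of the losses were in the difference between fragments: Furin lost it in 6 of 11 fits without a single sample and Gga2 in 9. Some of these fits leave 1 nApoE3 sample, and losses there are not read. With genes of at least 1 count Furin, Gga2 and Aph1c lost the call. Aph1c also lost it in thinned libraries. The remaining loss was Itm2b with nApoE3 in a single fit of all 11 samples (adjusted p = 0.0604), and the gains were Sorl1 with nApoE4 (4 alternatives) and Ide with nApoE3 (2). Of the latter, 1 came from a fit that leaves 1 nApoE3 sample and is not read.

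Replicate numbers did not pair the samples: residual correlations of same-numbered samples were -0.0386, -0.172 and -0.0624 in the nApoE4 experiment and -0.00792 and -0.0126 in the nApoE3 experiment. With a replicate block the calls of the 8 genes tested did not change, the difference between fragments was lost for Aph1c, Casp6, Furin, Tspan14, Gga2 and Dab2, and the genes whose change differed between the fragments went from 4331 to 2307.

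Directions that turned belong mostly to values far from the threshold, and the cause was not tested. Ide with nApoE3 lay nearer to the threshold, and its treated samples differed, at 5.46 and 11.2 CPM. Aph1b with nApoE4 was -0.015 when genes with at least 1 count were kept and -0.0057 with the block. Aph1a with nApoE3 was -0.0053 with at least 1 count and Bace1 in the difference 0.13 with the block. Leaving out single samples moved Bace1 from -0.11 to 0.42 with nApoE4, from -0.63 to 0.70 with nApoE3 and from -0.58 to 0.75 in the difference. With nApoE4 it moved Aph1b from -0.20 to 0.11, Furin from -0.0020 to 0.10 and Ide from -0.076 to 0.12. With nApoE3 it moved Aph1a from -0.027 to 0.035, Adam9 from -0.0034 to 0.059 and Ide from -0.23 to 0.80. None of these passed the threshold with all samples. At this depth Bace1 has a wide interval and Bace2 could not be tested.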
